A study of Mus musculus with 39 samples.

Results

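The endothelium and angiogenesis genes were followed as a group of 10 in the epididymal fat pad of C57BL/6J mice fed 5 diets. The members were the 10 genes Pecam1, Cdh5, Kdr, Flt1, Tek, Tie1, Vegfa, Angpt1, Angpt2 and Hif1a, of the 29411 gene names on the array. They were found by the gene name in the scanner files, which gave 16 probes, and each gene was read from its brightest probe. All 10 genes were tested in every comparison. Mice aged 3 to 4 weeks were put on a low fat control diet with 10% of its calories as fat (LFC), on a high fat, high sucrose diet with 60% (HFC), or on the latter with 5, 20 or 75 µg of KAL-1, a plant-based aqueous formulation (HF5, HF20 and HF75). LFC was sampled on days 1, 6, 10 and 14 and in weeks 0, 3, 6, 9, 12, 15 and 18, which gave 11 arrays. HFC lacked day 1 and gave 10 arrays, and each KAL-1 dose was sampled in weeks 3 to 18 only, which gave 6 arrays. Weeks were counted from day 14 of feeding, so day 14 and week 0 had the same feeding time. Each diet had a single array at a time point, although the series text speaks of 3 biological replicates. Whether an array held 1 mouse or a pool of the 5 killed per group was not stated. The time points therefore served as replicates. Comparisons between diets held the time point as a block, so their errors hold how far the differences varied between time points and animals. The errors of late against early within a diet, and the SDs, hold the spread over time as well as the spread between animals.

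Blood vessels of fat are lined by endothelial cells. Vegfa, a growth factor made by fat cells and other cells when oxygen is short, binds the endothelial receptors Kdr (VEGFR2, which carries most of the growth signal) and Flt1 (VEGFR1, which largely traps the ligand). Angpt1 steadies vessels through the receptor Tek, Angpt2 mostly opposes it, and Tie1 is the partner of Tek. Pecam1 and Cdh5 (VE-cadherin) hold endothelial cells to each other, and Hif1a is the subunit of the hypoxia factor that is controlled by oxygen, mainly through its protein.

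The 250 bases before the transcript start are shown for both VEGF receptors and Tie1, whose levels moved together below, and for Hif1a. Capitals mark the ETS family cores AGGAAG and CCGGAA and the hypoxia element cores ACGTG and GCGTG, searched on both strands, and overlapping matches are joined. Sequences are from RefSeq, build GRCm38.p6, which held this window for 6 of the 10 genes.
Kdr, chr5:75978456-75978705, minus strand: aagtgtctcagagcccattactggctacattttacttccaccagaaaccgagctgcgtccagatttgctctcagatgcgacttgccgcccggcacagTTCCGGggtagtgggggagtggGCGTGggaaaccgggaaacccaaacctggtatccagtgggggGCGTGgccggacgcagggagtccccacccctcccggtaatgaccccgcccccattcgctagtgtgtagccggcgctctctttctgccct
Flt1, chr5:147726012-147726261, minus strand: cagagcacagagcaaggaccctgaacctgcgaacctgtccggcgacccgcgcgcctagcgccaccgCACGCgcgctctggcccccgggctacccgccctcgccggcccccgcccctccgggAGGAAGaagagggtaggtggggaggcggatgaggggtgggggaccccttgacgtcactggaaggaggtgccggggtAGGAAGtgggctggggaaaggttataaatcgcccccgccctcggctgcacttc
Tie1, chr4:118489850-118490099, minus strand: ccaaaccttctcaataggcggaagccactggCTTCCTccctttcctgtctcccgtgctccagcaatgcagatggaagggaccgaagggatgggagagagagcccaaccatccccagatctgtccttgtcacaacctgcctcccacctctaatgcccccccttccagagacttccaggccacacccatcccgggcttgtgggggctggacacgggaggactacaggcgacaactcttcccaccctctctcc
Hif1a, chr12:73907617-73907866, plus strand: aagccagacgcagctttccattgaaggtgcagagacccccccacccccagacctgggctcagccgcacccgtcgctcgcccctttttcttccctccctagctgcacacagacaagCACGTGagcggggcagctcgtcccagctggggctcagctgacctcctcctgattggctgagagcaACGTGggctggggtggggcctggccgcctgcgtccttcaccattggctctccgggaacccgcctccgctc
The Flt1 window held AGGAAG at 2 places and GCGTG at 1. The Kdr window held CCGGAA at 1 place and GCGTG at 2. The Tie1 window held AGGAAG at 1 place and neither hypoxia core, and the Tek window held none of the 4 cores. The Hif1a window held ACGTG at 3, of which a pair overlapped on opposite strands. Of the 2 Vegfa windows, both on the minus strand, that at chr17:46032378-46032627 held no core. The other, at chr17:46025164-46025413, lies downstream of the first and held ACGTG and GCGTG at 1 place each. Of 32851 such windows, 38.2% held at least 1 ETS core and 38.6% at least 1 hypoxia core, so these matches are common, and they are a description only.

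A level is the log2 signal of a probe minus the 75th percentile of its array. The share of spots well above background ran from 53.7% to 79.6% on 37 arrays, whose median rank correlation with the rest ran from 0.901 to 0.950. The LFC array of week 3 (97.1% of spots above background, correlation 0.465) and the HFC array of week 12 (94.5%, 0.809) stood apart. Both were kept in the tests, and values without them are given where they change a result. All 8 adipocyte markers were well above background on every array. The scans of days 1 to 14 fell after all those of weeks 0 to 18.

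The adhesion genes had a wide range. Pecam1 lay between -1.15 and 3.17 in LFC (median 1.83), between -0.46 and 2.37 in HFC (median 1.56), between 1.48 and 2.73 in HF5 (median 1.91), between -1.37 and 2.81 in HF20 (median 1.07) and between -1.03 and 2.10 in HF75 (median 1.11). Cdh5 lay between 2.04 and 5.51 in LFC, between 2.02 and 5.51 in HFC and between 4.60 and 5.42 on the 5 HF5 arrays with a value. In HF20 Cdh5 went from 1.86 to 5.31, and in HF75 from 2.42 to 6.44. The HF5 arrays were all in the upper range of both genes, while every other diet held both low and high arrays, and all the diets overlapped.

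The VEGF receptors followed the same course. Flt1 had its lowest, median and highest level at 3.20, 5.70 and 6.51 in LFC, at 2.87, 5.47 and 6.58 in HFC, at 5.96, 6.38 and 6.49 in HF5, at 2.83, 4.91 and 6.33 in HF20, and at 4.11, 5.90 and 6.58 in HF75. Kdr lay between 2.52 and 5.84 in LFC, between 3.11 and 5.96 in HFC, between 4.87 and 5.39 in HF5, between 2.26 and 5.51 in HF20 and between 3.53 and 6.10 in HF75. The SD of Kdr over weeks 3 to 18 was 0.20 in HF5 and 1.40 in HF20 (n = 6 each), and that of Flt1 was 0.22 and 1.40.

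The angiopoietin receptors were spread as widely. Tek lay between -1.49 and 1.56 in LFC, -1.45 and 1.23 in HFC, -1.25 and 1.65 in HF20, and -0.87 and 1.15 in HF75. In HF5 it was between 0.38 and 1.65 on 5 arrays and at -2.35 in week 9. Tie1 lay between -1.57 and 2.23 in LFC, -0.54 and 1.85 in HFC, 1.00 and 2.48 in HF5, -0.91 and 1.79 in HF20, and -0.71 and 1.71 in HF75. The lowest Tie1 value was on the LFC array of week 3, and without that array the LFC range over weeks 3 to 18 began at -0.98.

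The ligands differed from each other. Angpt2 had its lowest, median and highest level at -0.20, 2.49 and 3.08 in LFC, at -0.25, 2.37 and 2.68 in HFC, at 1.80, 2.58 and 3.13 in HF5, and at -0.12, 1.46 and 2.51 in HF20. In HF75 it reached from 0.02 to 3.33. Angpt1 was dim, with a median of -4.42 over the 37 arrays with a value, and its 2 probes followed each other poorly (Pearson r = 0.27, n = 37), so little can be read from it. Vegfa lay between -0.45 and 2.72 in LFC, -0.36 and 2.79 in HFC, -0.34 and 3.44 in HF5, -0.52 and 2.02 in HF20, and -0.14 and 2.77 in HF75. Its highest value was that of HF5 in week 18. Hif1a lay between -0.34 and 3.59 over 37 arrays with a value (median 1.59).

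**Figure D1:**
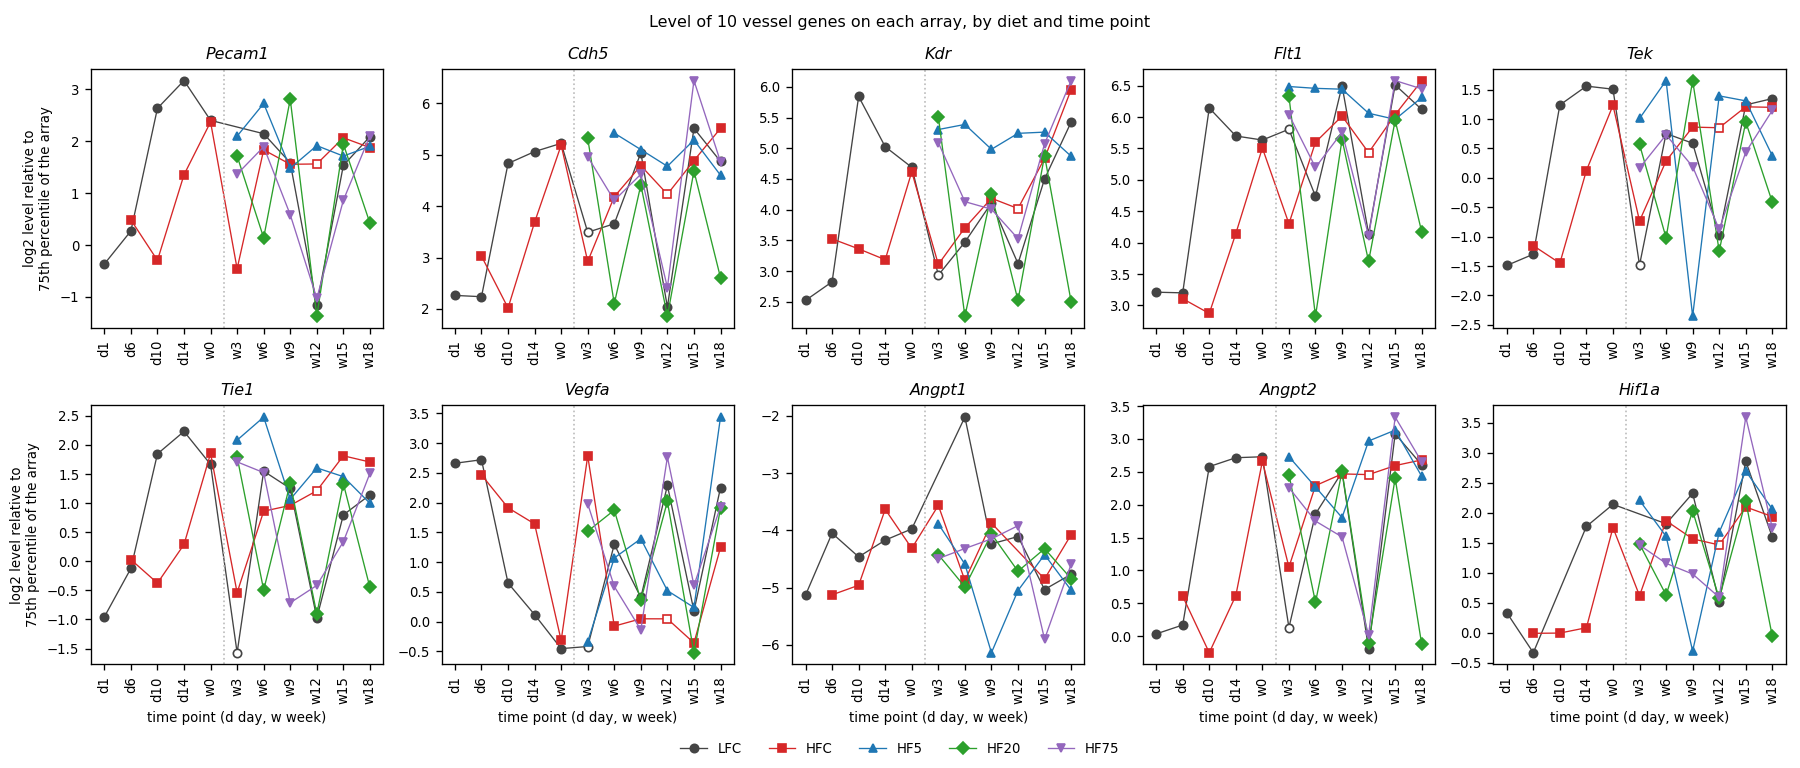
Level of each gene on each array (y axis, log2 relative to the 75th percentile of the array) by time point (x axis), 1 point per array, with colour and shape for diet, lines joining the arrays of a diet, and open symbols for the LFC array of week 3 and the HFC array of week 12. The dotted line parts days 1 to 14 and week 0 from weeks 3 to 18. Most panels other than Vegfa and Angpt1 dip on the same arrays, such as week 12 of LFC, HF20 and HF75, where Flt1 was 4.14, 3.70 and 4.11 against 6.06 in HF5.

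The arrays fell into 2 ranges by these genes. The mean of Pecam1, Cdh5, Kdr, Flt1, Tek and Tie1 (missing values left out) lay between 0.76 and 1.50 on 10 arrays. It lay between 2.13 and 4.02 on the other 27, and the gap of 0.63 between these ranges was the widest among the 37 arrays. The LFC array of week 3, not among the 37, lay inside this gap at 1.84. At the upper edge of the gap was HFC of day 14 (2.13). Its Angpt2 (0.62) and Hif1a (0.08) were within the values of the 10 arrays, which reached 1.05 and 0.63. The 10 arrays were LFC of day 1, day 6 and week 12, HFC of day 6, day 10 and week 3, HF20 of weeks 6, 12 and 18, and HF75 of week 12. That was 3 of 10 LFC, 3 of 9 HFC, 0 of 6 HF5, 3 of 6 HF20 and 1 of 6 HF75 arrays. In weeks 0 to 18 the split ran with the form of the sample titles. There the titles of all arrays of the upper range ended in the letter A. The titles of the lower range ended otherwise, for example in EA1, EA2 or ED. On day 10 the LFC and HFC titles had the same form, while the arrays fell in different ranges. What the endings stand for was not stated, and their part in the split was not tested. In week 12 the HF20 array (mean 0.76) and the HF5 array (3.50) were on the same slide, and so were the HF20 array (1.47) and the HF5 array (3.18) of week 18. Across the 37 arrays the mean of 6 had r = -0.36 with the log2 of the 75th percentile, r = -0.27 with the share of spots above background, and r = 0.61 with the median rank correlation of an array with the others. It had r = -0.41 with the summed level of 6 macrophage genes, -0.27 with that of 8 adipocyte genes, and -0.66 with that of 5 genes of subcutaneous fat, of which 1 to 5 were above background on an array. With that of 10 immediate early genes, which are described below, it had r = 0.87 (Spearman rho = 0.42). Their summed level was 3.58 to 6.71 on the 10 arrays and 7.37 to 10.2 on the 27, without overlap. The part of these measures in the split was not tested. In whole tissue, fewer endothelial cells and less of each RNA per endothelial cell cannot be told apart.

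Since the arrays fell into 2 ranges, no test over all of them is given for pairs of genes, and 5 pairs were examined within each range (10 tests, permutation test of 100000 resamples, two-sided, p adjusted by Benjamini-Hochberg). The ranges had been set on the mean of 6, which narrows each of them and lowers r between its genes by construction, so a low r within a range says little about Kdr and Flt1, Tek and Tie1 or Pecam1 and Cdh5. The permutation took the arrays as exchangeable, although they came from 5 diets and shared time points. Its p therefore does not measure pairing between independent samples. On the 27 arrays of the upper range Kdr and Flt1 had Pearson r = 0.73 (p = 2.0e-05, adjusted p = 2.0e-04) and Spearman rho = 0.61 (p = 6.4e-04, adjusted p = 0.0064). Without the 2 arrays farthest from the median of Kdr r was 0.55. On the 6 HF5 arrays, all in the upper range, their r was -0.09 and rho 0.43. Tek and Tie1 had r = 0.44 (permutation p = 0.0359, adjusted p = 0.179) and rho = 0.51 (p = 0.0067, adjusted p = 0.0335), and r = 0.57 without the 2 farthest arrays. Pecam1 and Cdh5 had r = -0.11 (n = 26, permutation p = 0.596, adjusted p = 0.846) and rho = -0.08 (p = 0.693, adjusted p = 0.918). Angpt1 and Angpt2 had r = -0.34 (permutation p = 0.0868, adjusted p = 0.289) and rho = -0.19 (p = 0.351, adjusted p = 0.701). Vegfa and Hif1a had r = -0.28 (n = 26, permutation p = 0.158, adjusted p = 0.316) and rho = -0.41 (p = 0.037, adjusted p = 0.123). On the 10 arrays of the lower range r was between 0.03 and 0.51 for the 5 pairs, with the smallest permutation p at 0.138 for Pecam1 and Cdh5 (adjusted p = 0.316). By its brightest probe Vegfa was 1.88 to 2.79 on the 10 arrays of the lower range (median 2.38) and -0.52 to 3.44 on the 27 (median 0.52), and the ranges overlapped. The medians of its other 3 probes were 2.06 against 0.26, -0.24 against -1.43 and -3.80 against -4.28, all higher in the lower range and all with overlap. No test was made of this difference.

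Arrays of a time point were scanned on the same day, except in weeks 3 and 6. About the mean of their time point, Kdr and Flt1 had r = 0.91, Tek and Tie1 0.73, Pecam1 and Cdh5 0.79, Vegfa and Hif1a -0.41, and Angpt1 and Angpt2 -0.06 (n = 34 to 36, both ranges joined, given as a description). Within days 1 to 14 (6 or 7 arrays) these were 0.91, 0.96, 0.98, -0.88 and 0.31, and within weeks 0 to 18 (29 or 30 arrays) 0.89, 0.72, 0.76, -0.50 and -0.14.

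The genes most like the mean of the 6, by Pearson r over the 37 arrays among 28021 probes well above background on at least 19 of them, were Esam1 (r = 0.97), Arhgef15 (0.97), Apbb2 (0.97), a transcript named ENSMUST00000067307 (0.96), Ets2 (0.96), Prex2 (0.96), Uaca (0.96), Fnbp1l (0.95), Epha4 (0.95) and Sh3bp5 (0.95). Esam1, now called Esam, encodes a junction protein of endothelial cells. Within the upper range of 27 arrays their r was between 0.62 for Epha4 and 0.87 for Arhgef15. Such likeness was not rare on these arrays, since 9.07% of the probes had r above 0.7 and 0.739% above 0.9. Of 23 further genes of endothelial identity 18 were above 0.7, and of 11 tip cell and Notch genes 8 were. So were 5 of 10 pericyte and smooth muscle genes, 3 of 8 other angiogenic factors and 3 of 11 HIF targets. None of 6 macrophage, 8 adipocyte or 4 epididymis genes that passed the same filter was. In the other direction, 1930 of the 28021 probes had r below -0.7. These included 1 adipocyte gene (Lipe, r = -0.72) and 1 HIF target (Bnip3, -0.73), but no macrophage or epididymis gene. Of 7 VEGF ligands and receptors 2 were above 0.7 and 1 was below -0.7 (Vegfb, -0.74). The median r was -0.40 for the adipocyte genes and -0.31 for the macrophage genes. All of the 10 immediate early genes were above 0.7, from 0.74 for Egr2 to 0.93 for Ier3, and the list was added after the levels were seen. Immediate early genes such as Fos, Egr1 and Nr4a1 are switched on within minutes by many stimuli, among them the handling of tissue. Their part in the levels of the vessel genes was not tested.

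**Figure D2:**
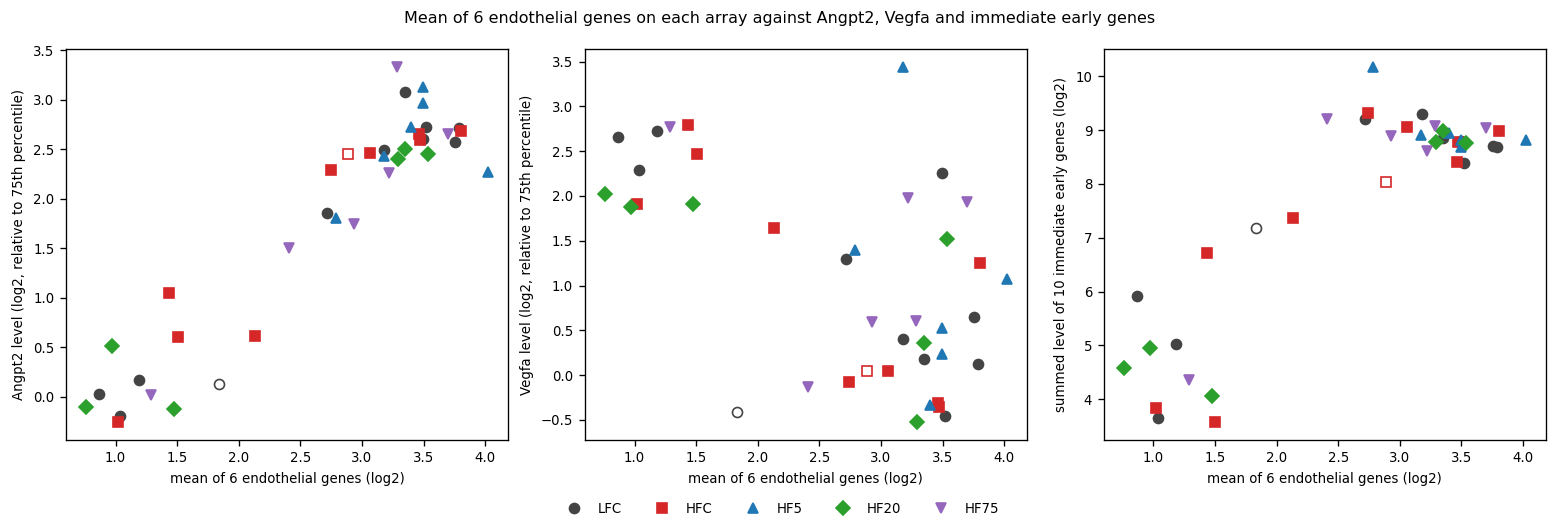
Each point is 1 of 39 arrays, with the mean log2 level of the 6 endothelial genes on the x axis and, from left to right on the y axes, the log2 level of Angpt2, that of Vegfa, and the summed level of 10 immediate early genes (log2). Symbols give the diet, and open symbols are the LFC array of week 3 and the HFC array of week 12. Arrays up to 1.50 on the x axis have Angpt2 up to 1.05, Vegfa from 1.88 to 2.79 and an immediate early level up to 6.71, and HF5 has no array there.

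The first comparison asks whether the high fat diet changed the vessel genes. Over 10 paired time points no member passed between HFC and LFC (limma with the time point as a block, 0 of 10 with an adjusted p under 0.05 against 0% of 29168 probes). None had an unadjusted p under 0.05 either, against 3.05% of all probes, and 0 passed when the methods' t-test was run on paired differences. The smallest p was that of Flt1, whose HFC minus LFC difference was -0.49 ± 0.39 (SE, p = 0.229, adjusted p = 0.998), lower at 7 of 10 time points. The other members were between -0.37 for Angpt1 and 0.04 for Vegfa. The median of the 10 was -0.18, beside 0.03 for all probes. Of the 10 members 1 was above 0, against 53.6% of all probes, and 3 were with quantile or median scaling. Without day 10, 7 of the 10 members changed sign and the median was 0.09. Of 23 other endothelial identity genes 5 were above 0, with a median of -0.18. The angiogenesis inhibitor Vash1 was at -0.63 ± 0.28 (p = 0.0436, adjusted p = 0.998). Of macrophage genes 6 of 6 were above 0 (median 0.59), of mesothelium genes 5 of 5 (0.86), of adipocyte genes 6 of 8 (0.49), of epididymis genes 0 of 5 (-1.997) and of immediate early genes 0 of 10 (-0.30). Their part in the vessel genes was not tested.

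Over weeks 3 to 18 alone no member passed (0 of 10 by limma against 0% of 31450 probes, 0 with an unadjusted p under 0.05 against 2.31%, and 0 by the methods' t-test). Angpt2, the antagonist of Angpt1, had the smallest p, at 0.60 ± 0.53 in HFC (p = 0.268, adjusted p = 1.00). Without the LFC array of week 3 and the HFC array of week 12 it was at -0.044. Of the 10 members 6 changed sign without these 2 arrays. Kdr was higher in HFC at 6 of 6 time points, by 0.37 ± 0.51 (p = 0.467). In week 12, when the LFC array was in the lower range, the mean of 6 was 1.85 higher in HFC. In weeks 6, 9, 15 and 18 the difference was between -0.12 and 0.31. In week 3 it was -0.40, but the LFC mean there lacked Pecam1, while the HFC mean held it at -0.46. Weeks 3 and 12 each include 1 of the 2 arrays that stood apart. Of the 10 members 7 were above 0, against 57.5% of all probes, with a median of 0.26 beside 0.06 for all probes. Endothelial identity genes were higher in 21 of 23 cases (median 0.29), and tip cell and Notch genes in 11 of 11 (median 0.57). The Notch ligand Jag1 was at 0.87 ± 0.42 (p = 0.0485, adjusted p = 1.00). The 10 immediate early genes were all higher too (median 0.82).

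KAL-1 was compared with HFC over weeks 3 to 18, and the 3 doses share the HFC arrays. No member passed at any dose (0 of 10 by limma each time against 0% of 31450 probes, and 0 by the methods' t-test). None of the 10 had an unadjusted p under 0.05, against 3.42% of all probes for HF5, 4.84% for HF20 and 1.5% for HF75. At 5 µg Kdr had the smallest p, at 0.87 ± 0.51 (p = 0.0970, adjusted p = 0.954), higher at 5 of 6 time points. At 20 µg Flt1 had the smallest p, at -0.89 ± 0.44 (p = 0.0558, adjusted p = 0.780), lower at 5 of 6, and its second probe was at -1.07 ± 0.48 (p = 0.0354). Angpt2 at this dose was at -0.98 ± 0.53 (p = 0.0744) and Cdh5 at -0.92 ± 0.52 (p = 0.0888). At 75 µg Vegfa had the smallest p, at 0.67 ± 0.54 (p = 0.225, adjusted p = 1.00), and the other members were between -0.44 and 0.35.

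The counts of members above HFC were unequal between the doses. At 5 µg 8 of 10 were above HFC (median 0.50), at 20 µg 1 of 10 (median -0.55) and at 75 µg 4 of 10 (median -0.16), beside medians of -0.03, -0.07 and -0.01 for all probes. The shares of all probes above HFC were 47.8%, 44.7% and 48.6%. With median scaling, which moved the median of all probes by 0.35, 0.31 and 0.35, the counts were 9, 1 and 8. With quantile scaling they were 7, 1 and 3. Single time points weighed on these medians. Without week 3 that of HF5 was 0.19 and that of HF20 -1.07 (Flt1 -1.47). Without week 18 that of HF20 was -0.26, without week 12 it was -0.32, and without week 6 Flt1 was -0.51. That of HF75 was 0.13 without week 12. The endothelial identity list had 22, 2 and 18 of 23 genes higher. In HF5 Gpihbp1, which carries lipoprotein lipase to the vessel lumen, was at 0.94 ± 0.39 (p = 0.0233, adjusted p = 0.954). In HF20 the tip cell receptor Unc5b was at -1.12 ± 0.49 (p = 0.0327, adjusted p = 0.780) and the angiogenesis inhibitor Thbs2 at 1.08 ± 0.44 (p = 0.0209, adjusted p = 0.780). In HF75 the lymphatic gene Pdpn was at -1.23 ± 0.59 (p = 0.0487, adjusted p = 1.00). The immediate early list had 9, 0 and 0 of 10 genes above HFC, with medians of 0.59, -1.99 and -0.37. Its summed level was 8.69 to 10.2 in HF5, 4.06 to 8.98 in HF20, 4.36 to 9.20 in HF75 and 6.71 to 9.31 in HFC. In HF20 the 6 macrophage genes were all above HFC (median 0.48), and so were the 6 epididymis genes (1.63) and the 5 mesothelium genes (0.91). Of adipocyte genes 6 of 8 were above HFC there (0.96), and of cell division genes 0 of 5 (-0.73). The part of these in the vessel genes was not tested.

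**Figure D3:**
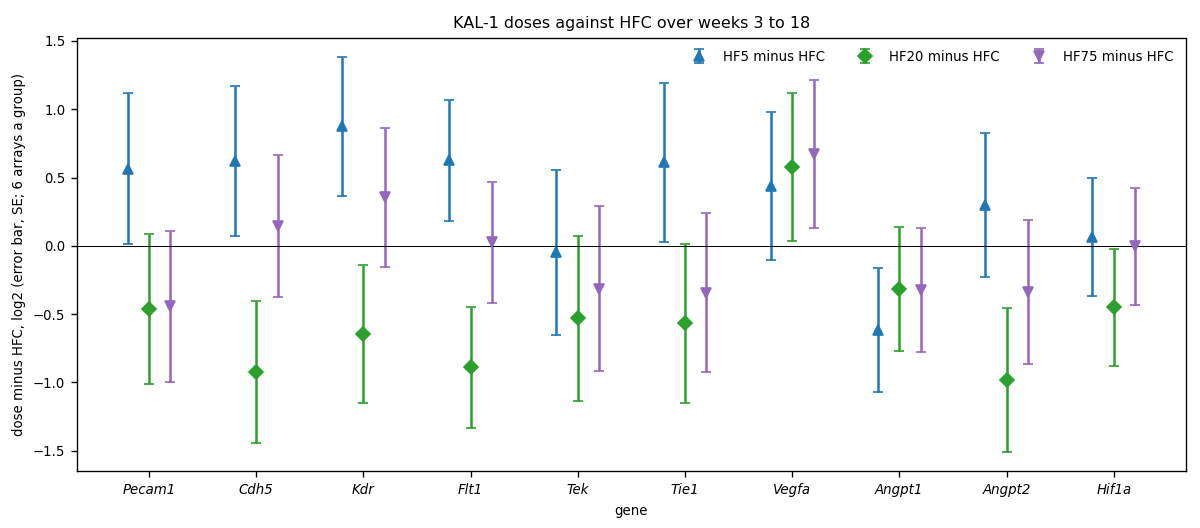
Difference of each KAL-1 dose from HFC over weeks 3 to 18 (y axis, log2, points are limma estimates and bars ± 1 SE, 6 arrays a group with missing values left out) for each gene (x axis). For every gene but Angpt1 and Vegfa the HF20 points lie lowest, with Flt1 at -0.89, and the HF5 points lie highest. No point passed the test.

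As a mean of the 3 doses, KAL-1 gave no member that passed (0 of 10 by limma against 0% of 31450 probes, 0 with an unadjusted p under 0.05 against 1.75%, and 0 by the methods' t-test). Vegfa had the smallest p, at 0.56 ± 0.44 (p = 0.215, adjusted p = 1.00), higher at 5 of 6 time points. The other members were between -0.42 and 0.19. Members above 0 were 2 of 10 as scaled here, against 46.8% of all probes, and 9 of 10 with median scaling.

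The doses were then compared with each other, in 3 comparisons added after the levels were seen. No member passed (0 of 10 by limma in each against 0% of 31450 probes, and 0 by the methods' t-test). From HF5 to HF20 the largest gaps were those of the VEGF receptors and Cdh5. Flt1 was lower in HF20 by 1.52 ± 0.44 on the log2 scale, at 6 of 6 time points (p = 0.00225, adjusted p = 0.177). Most of this gap came from weeks 6, 12 and 18, when the HF20 array was in the lower range. Flt1 was then 2.83, 3.70 and 4.17 in HF20 against 6.46, 6.06 and 6.31 in HF5. In weeks 3, 9 and 15 it was 6.33, 5.64 and 5.95 against 6.49, 6.44 and 5.96. Kdr was lower by 1.52 ± 0.51 at 5 of 6 (p = 0.00623, adjusted p = 0.180). Cdh5 was lower by 1.54 ± 0.55 at 5 of 5 (p = 0.0102, adjusted p = 0.187), and Angpt2 by 1.28 ± 0.53 at 5 of 6 (p = 0.0228, adjusted p = 0.212). These were the 4 of 10 members with an unadjusted p under 0.05, beside 18.3% of all probes. Members above 0 were 2 of 10, against 48.4% of all probes, with a median of -1.10 beside -0.02 for all probes.

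Other probes of the same genes did not all follow. The second probes of Flt1 and Cdh5 were at -1.72 (p = 0.00154) and -1.21 (p = 0.0406). The probes of Angpt1 pointed opposite ways, at 0.30 and -1.03 (p = 0.0146 for the second). Vegfa was at 0.14 by its brightest probe and at -0.76 by its dimmest (p = 0.0349). On the slides that held both diets, Flt1 was 2.36 higher in HF5 in week 12, and 2.14 higher in week 18. Kdr was 2.72 and 2.37 higher there. In both weeks the HF20 array was in the lower range.

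No gene of the other vessel lists passed between HF5 and HF20. Of the endothelial identity list 0 of 23 were higher, with a median of -1.07, and 15 had an unadjusted p under 0.05, beside 18.3% of all probes. First among them were Ramp2, the coreceptor of adrenomedullin, at -1.06 ± 0.32 (p = 0.00325), and Gpihbp1, at -1.24 ± 0.39 (p = 0.00393). Of the tip cell and Notch list 0 of 11 were higher (median -1.10), with Unc5b at -1.54 ± 0.49 (p = 0.00474) and the receptor Notch1 at -1.42 ± 0.50 (p = 0.00927). The VEGF family ligand Pgf was at -1.56 ± 0.45 (p = 0.00231) and the coreceptor Nrp2 at -1.09 ± 0.45 (p = 0.0228). Of the HIF targets Slc2a1, a glucose transporter, was at -1.53 ± 0.45 (p = 0.00226) and the peptide Adm at -1.54 ± 0.55 (p = 0.0106). The oxygen sensors Egln2 and Egln1 were at 0.86 ± 0.28 (p = 0.00489) and 1.09 ± 0.48 (p = 0.0322). The pericyte genes Abcc9 and Pdgfrb were at -0.88 ± 0.32 (p = 0.0115) and -1.06 ± 0.41 (p = 0.0158). Of 10 immediate early genes 0 were higher in HF20 (median -2.60), while the 6 macrophage genes (median 0.56) and the 5 mesothelium genes (0.98) were all higher. Of adipocyte genes 5 of 8 were higher in HF20 (0.89), and of epididymis genes 5 of 6 (1.69). Their part was not tested.

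From HF20 to HF75, Flt1 was at 0.92 ± 0.44 (p = 0.0492, adjusted p = 0.752), higher at 5 of 6 time points, and its second probe at 1.31 ± 0.48 (p = 0.0121). It was the 1 member of 10 with an unadjusted p under 0.05, beside 6.62% of all probes. Members above 0 were 9 of 10, against 53.2% of all probes. From HF5 to HF75 the smallest p was that of Pecam1, at -1.01 ± 0.55 (p = 0.0810, adjusted p = 0.870), and 5.81% of all probes had an unadjusted p under 0.05 against 0 of 10 members. Members above 0 were 2 of 10, against 50.7% of all probes.

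By mean level over weeks 3 to 18, both VEGF receptors were highest in HF5 and lowest in HF20. Flt1 was 6.29 ± 0.22 in HF5, 5.69 ± 0.92 in HF75, 5.66 ± 0.78 in HFC, 5.64 ± 0.98 in LFC and 4.77 ± 1.40 in HF20 (SD, n = 6). Kdr was 5.18 ± 0.20, 4.66 ± 0.94, 4.30 ± 0.99, 3.93 ± 0.94 and 3.66 ± 1.40 in the same order. Neighbours in these orders differed by less than the larger of their SDs. Without the LFC array of week 3 and the HFC array of week 12, Flt1 was 5.71 in HFC and 5.60 in LFC, which put HFC above HF75, and Kdr was 4.36 and 4.13. Angpt2 was highest in HF5 (2.56 ± 0.49) and lowest in HF20 (1.28 ± 1.31), with HFC at 2.26 ± 0.61, HF75 at 1.92 ± 1.14 and LFC at 1.66 ± 1.37. For Vegfa the order was another one, from HF75 (1.29 ± 1.10), HF20 (1.19 ± 1.04), HF5 (1.05 ± 1.32) and LFC (1.00 ± 1.13) to HFC (0.62 ± 1.20), with all differences smaller than the SDs. Without the same 2 arrays LFC came before HF75 for Angpt2 (1.97) and before HF20 for Vegfa (1.29).

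Time on a diet was examined as weeks 3 to 18 against the earlier arrays. The mice were 3 to 4 weeks old when feeding began, so within a diet age and time on the diet cannot be told apart. Within LFC no member passed (0 of 10 by limma against 0.49% of 30418 probes, and 0 with an unadjusted p under 0.05 against 5.52%). Hif1a had the smallest p, at 0.84 ± 0.63 (p = 0.211, adjusted p = 0.929). With week 0 alone as the early array it was at -0.32. The other members were between -0.57 for Tie1 and 0.86 for Flt1. Of the 10 members 5 lay above 0, against 43.7% of all probes, and 3 with median scaling or 4 with quantile scaling. Among the pathway genes the peptide Apln, which takes part in vessel sprouting, came first, at -1.46 ± 0.36 (p = 0.00145, adjusted p = 0.161). The pericyte gene Mcam was at -0.92 ± 0.34 (p = 0.0187), the growth factor Mdk at -0.88 ± 0.38 (p = 0.0380) and Egln1 at -0.71 ± 0.32 (p = 0.0451).

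Within HFC Flt1, Hif1a and Angpt2 were low on days 6, 10 and 14 but not in week 0. Flt1 was 3.11 on day 6, 2.87 on day 10, 4.14 on day 14 and 5.51 in week 0, against a lowest, median and highest level of 4.30, 5.81 and 6.58 in weeks 3 to 18. Days 6, 10 and 14 were thus below every later array, while week 0 was not. Flt1 was higher late by 1.75 ± 0.56 (p = 0.00986, adjusted p = 0.218), and its second probe by 1.83 ± 0.65 (p = 0.0175). Hif1a was -0.01, -0.01, 0.08 and 1.75 early and 0.62 to 2.09 late, a difference of 1.14 ± 0.42 (p = 0.0204, adjusted p = 0.242). Angpt2 was 0.61, -0.25, 0.62 and 2.66 early and 1.05 to 2.68 late, a difference of 1.35 ± 0.53 (p = 0.0274, adjusted p = 0.253). Both genes were lower on days 6, 10 and 14 than on any later array. No member passed (0 of 10 by limma against 0% of 29397 probes), and the 3 with an unadjusted p under 0.05 stand beside 17.3% of all probes. Of the 10 members 9 lay above 0, against 51.2% of all probes, with a median of 0.78. Vegfa was 2.47, 1.91, 1.64 and -0.32 early and -0.36 to 2.79 late, at -0.81 ± 0.69 (p = 0.266).

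The calls of this comparison changed with single arrays and with their weights. Without week 0, 3 members passed beside 2.88% of 28624 probes. These were Flt1, at 2.29 (limma, adjusted p = 0.0429), Hif1a, at 1.57 (adjusted p = 0.0442), and Angpt2, at 1.93 (adjusted p = 0.0410). With week 0 as the only early array Flt1 was at 0.15, Hif1a at -0.16 and Angpt2 at -0.40. Limma array weights, which ran from 0.355 for week 3 to 2.70 for week 15 with week 0 at 0.471, let 7 members pass beside 27.3% of all probes. Week 0 was scanned with weeks 3 to 18 and days 6 to 14 in the other period, so apart from week 0 the time on the diet and the scan period cannot be told apart. The immediate early list had 10 of 10 genes higher late, with a median of 3.00, and its summed level was 3.58 to 8.41 early and 6.71 to 9.31 late. Of 6 macrophage genes 1 was higher late (median -0.73), and of 8 adipocyte genes 2 (-1.06). None of 5 mesothelium genes (-1.55) or of 5 cell division genes (-1.71) was. Their part was not tested.

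Day 14 and week 0, which had the same feeding time, differed in HFC. There, week 0 minus day 14 was 1.36 for Flt1, 1.50 for Cdh5, 1.43 for Kdr, 1.57 for Tie1, 1.67 for Hif1a, 2.04 for Angpt2 and -1.96 for Vegfa. In LFC it was -0.06 for Flt1, 0.16 for Cdh5, -0.34 for Kdr, -0.57 for Tie1, 0.37 for Hif1a, 0.01 for Angpt2 and -0.57 for Vegfa. With 1 array on each side these differences have no replicate check. For all of these genes but Flt1 the difference in HFC was larger than the late minus early difference.

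**Figure D4:**
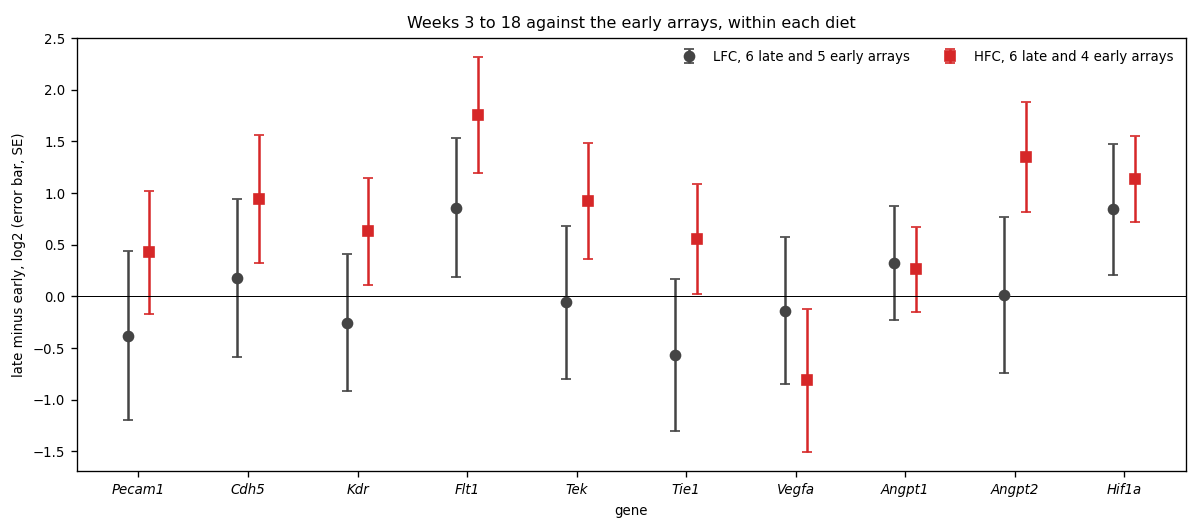
Late minus early difference (y axis, log2, points are limma estimates and bars ± 1 SE) of each gene (x axis) within LFC and within HFC. In HFC 9 of 10 genes lie above 0, with Flt1 highest at 1.75, and Vegfa lies at -0.81, while in LFC 5 of 10 lie above 0.

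Of the other vessel genes in HFC, 22 of 23 of the identity list were higher late (5 with an unadjusted p under 0.05 beside 17.3% of all probes, median 1.01 beside 0.02 for all probes), and 9 of 11 of the tip cell and Notch list (4, median 0.96). The endothelial matrix protein Mmrn2 was at 1.49 ± 0.48 (p = 0.00949) and Ptprb, a phosphatase that acts on Tek, at 1.85 ± 0.62 (p = 0.0122). The chemokine receptor Cxcr4 was at 2.06 ± 0.63 (p = 0.00771) and the Notch target Hey1 at 1.65 ± 0.54 (p = 0.0117). The inhibitor Thbs1 was at 3.67 ± 0.76 (p = 5.5e-04, adjusted p = 0.207). The matrix factors Ctgf and Cyr61 were at 1.54 ± 0.55 (p = 0.0179) and 2.49 ± 0.91 (p = 0.0197). Of the hypoxia pathway 4 of 8 genes were higher, with Epas1, the relative of Hif1a, at 1.09 ± 0.35 (p = 0.0107) and the oxygen sensor Egln3 at -1.34 ± 0.48 (p = 0.0173). The HIF targets were divided, with 5 of 11 higher (median -0.11), Pgk1 at -0.90 ± 0.36 (p = 0.0286) and Ndrg1 at 1.52 ± 0.63 (p = 0.0352). The pericyte gene Rgs5 was at 1.44 ± 0.52 (p = 0.0190). None of these passed after adjustment over all probes.

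The last comparison asks whether the diets differed in their course, as the HFC minus LFC difference late against early. Tie1 differences were 0.15 on day 6, -2.22 on day 10, -1.94 on day 14 and 0.19 in week 0, and -0.69 to 2.19 in weeks 3 to 18. For the mean of 6 they were 0.32, -2.73, -1.66 and -0.06 early, so HFC was far below LFC on days 10 and 14 but not on day 6 or in week 0. Tie1 changed by 1.59 ± 0.68 (p = 0.0392), Tek by 1.43 ± 0.62 (p = 0.0415), Angpt2 by 1.73 ± 0.76 (p = 0.0435) and Kdr by 1.30 ± 0.59 (p = 0.0480), each with an adjusted p of 0.841. No member passed (0 of 10 by limma against 0% of 29168 probes), and these 4 stand beside 5.14% of all probes with an unadjusted p under 0.05. All 6 late differences were above the early mean for these 4 genes, but so were those of day 6 and week 0. Of the 10 members 8 were above 0, against 59.2% of all probes, with a median of 1.29 beside 0.15 for all probes. Without day 10 the median was 0.70, Kdr was at 0.78 and Tek at 0.89.

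The endothelial identity list was above 0 in 23 of 23 genes (median 1.28), the tip cell and Notch list in 11 of 11 (1.34), the pericyte and smooth muscle list in 10 of 10 (1.27) and the immediate early list in 10 of 10 (2.69). The identity genes with the smallest p were Ptprb (2.01 ± 0.69, p = 0.0134) and Vwf (2.06 ± 0.76, p = 0.0199), the clotting factor stored in endothelial cells. Of the Notch genes these were Hey1 (2.02 ± 0.76, p = 0.0220) and the ligand Dll4 (1.67 ± 0.75, p = 0.0465), and of the inhibitors Thbs2 (1.39 ± 0.48, p = 0.0140) and Thbs1 (3.75 ± 1.32, p = 0.0156). The pericyte receptor Notch3 was at 1.61 ± 0.57 (p = 0.0158) and the smooth muscle actin Acta2 at 1.94 ± 0.81 (p = 0.0340). The 6 macrophage and 8 adipocyte genes were all below 0, with medians of -0.75 and -1.13, and their part was not tested.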

How the data were processed

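RNA of epididymal fat was measured on 39 one-colour Agilent arrays (43803 non-control spots, 40628 probes). The deposited scanner files hold the processed signal, an intensity on a linear scale, and spot flags made by Agilent Feature Extraction (9.1 per the labels, 10.5.1.1 per the file headers, build mm9). The deposited series table holds log2 differences from LFC of the same time point, made by the authors in GeneSpring, and was used as an alternative. Here the 75th percentile of each array was subtracted from log2(signal), outlier spots were left out, and spots of a probe were averaged. The week 9 signals had been rounded to 3 digits before deposit, against up to 7 in the other files. Columns of samples not used numbered 0.

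A probe was tested where it rose well above background on 10 or more of 20 arrays (HFC against LFC), 6 or more of 30 (weeks 3 to 18), or 5 or more of the LFC or HFC arrays, with limma 3.58.1 (R 4.3.3), two-sided, with p adjusted by Benjamini-Hochberg over all tested probes and a threshold of 0.05. The fits between diets held the time point as a block. Weeks 3 to 18 of all diets were fitted together. Fits were tested on simulated data. The methods' t-test within a time point could not be run on 1 array, so it was run on the paired differences. The p-values measure only the spread between these arrays, and precision is set by how many there are.

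Members with an unadjusted p under 0.05, or else the one with the smallest p, were named with their statistics, and up to 2 genes per pathway list and comparison with the smallest p under 0.05. Not all of the latter are printed. The members and lists were chosen with earlier results of these data known. The immediate early list, the comparisons between doses, the correlations within ranges and the slide values were added after the levels were seen.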

Additional observations from a re-analysis of the deposited data

Results flagged for a closer look

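Of 60 sets of arrays (a gene in a diet, with early and late LFC apart), 4 held an array far from the others. That is close to the number chance gives, about 1 in 20, and the sets share arrays. Pecam1 was -1.15 in LFC of week 12, where the 4 other late LFC arrays with a value were 1.53 to 2.14. Tek was -2.35 in HF5 of week 9 and 0.38 to 1.65 on the 5 other HF5 arrays. Hif1a was -0.31 on the same array and 1.61 to 2.69 on the others. That array had the lowest 75th percentile (119) and the smallest share of spots above background (53.7%) of the 37, and the processed signals of week 9 were deposited with 3 digits against up to 7 on the other arrays. The part of these was not tested. Angpt1 was -5.90 in HF75 of week 15 and -4.59 to -3.92 on the 5 other HF75 arrays.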

How the results depend on the processing

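No call of a member changed except within HFC, late against early. There array weights let 7 members pass (Flt1 2.43, Hif1a 1.65, Angpt2 1.90, median of the members 1.42), and leaving out 1 array gave 0 to 3 passing, the 3 without week 0, with a median of 0.49 to 1.23. With week 0 alone as the early array Hif1a turned to -0.16, Angpt2 to -0.40 and the median to -0.36. The median of the HFC minus LFC course was 0.58 with array weights and 1.29 as reported. Hif1a within LFC turned to -0.32 with week 0 alone, and Angpt2 in HFC against LFC over weeks 3 to 18 to -0.044 without the LFC array of week 3 and the HFC array of week 12. The cause was not tested. Without the time point as a block, which paired the diets, 0 members passed in the 9 comparisons that had one and were refitted so. Flt1 was then at -0.49 (SE 0.50) in HFC against LFC, and at -0.89 (SE 0.53) in HF20 against HFC. The count passing was 0 in 236 of 238 alternatives, and the single genes followed kept their sign in all but the 4 of 397 given here. The median of the members crossed 0 in 6 of 12 comparisons: it ran from -0.41 to 0.09 in HFC against LFC, -0.17 to 0.37 over weeks 3 to 18, -0.27 to 0.24 in HF75 against HFC, -0.50 to 0.27 for the mean of the doses, -0.91 to 0.29 within LFC and -0.36 to 1.42 within HFC. Leaving out 1 time point gave 0.19 to 0.63 in HF5 against HFC, -1.07 to -0.26 in HF20 against HFC, 0.70 to 1.78 for the course, and, between doses, 0.14 to 0.71 from HF20 to HF75 and -0.70 to -0.17 from HF5 to HF75. Over all alternatives the adjusted p of Flt1 was 0.010 to 1.00 within HFC, 0.146 to 1.00 in HF20 against HFC, and 0.065 to 0.728 in HF20 against HF5. The number of arrays, 1 for each diet and time point, limits what could be detected, and Angpt1 was dim.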
